A study of Mus musculus with 180 samples.

Results

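The genes described here are 35 genes of the integrated stress response and its transcription factor *Atf4*, together with cytosolic tRNA synthetases, in LPS-stimulated mouse macrophages. They were taken by symbol from a table of 45070 genes, and the list was chosen with earlier results of these data known. *Mars* was found as *Mars1*, and all 35 were found. The samples were bone marrow-derived macrophages (BMDM) of wild type genotype, which the study grew from bone marrow of male C57/BL6 mice. Either 1 of 58 clinical kinase inhibitors (CKIs) or the vehicle DMSO was given 1 h ahead of LPS. All cells, controls included, received LPS at 10 ng/ml for 2 h, so no sample shows the cells without LPS. Each CKI had 3 samples and DMSO had 6, in 2 sets of 3. The concentration differed between CKIs, so values set side by side compare the treatments as given and not equal doses.

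The integrated stress response starts with kinases that phosphorylate the translation factor eIF2 when amino acids, heme or protein folding fail, or when double-stranded RNA is sensed. General translation then slows while the *Atf4* mRNA is translated better, and ATF4 protein switches on genes for amino acid synthesis, amino acid uptake and the charging of tRNAs. The kinase complex mTORC1 is also known to raise ATF4 translation, which links these genes to growth signals. In macrophages this programme feeds cytokine and antioxidant synthesis. RNA-seq shows the *Atf4* mRNA and the target mRNAs, and it does not show ATF4 protein.

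The 35 genes were read as 4 groups. The stress regulators are *Atf4*, *Atf5*, *Ddit3*, *Cebpg*, *Nupr1*, *Trib3*, *Ddit4*, *Sesn2*, *Chac1*, *Eif4ebp1* and *Vegfb*. The amino acid synthesis enzymes are *Asns* for asparagine, *Phgdh*, *Psat1* and *Psph* for serine, *Shmt2* and *Mthfd2* of the mitochondrial folate cycle, and *Aldh18a1* and *Pycr1* for proline. The transporters are *Slc7a5* and its partner chain *Slc3a2*, the arginine and lysine carrier *Slc7a1* and the neutral amino acid carrier *Slc38a2*. The remaining 12 are the tRNA synthetases *Aars*, *Cars*, *Eprs*, *Gars*, *Iars*, *Lars*, *Mars*, *Nars*, *Sars*, *Tars*, *Wars* and *Yars*.

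ATF4 binds DNA together with C/EBP proteins at an element that is often written TGATGNAA. This motif was searched on both strands in RefSeq promoters of build GRCm38.p6, each covering 250 bases before and 50 after a gene's start, and no other motif was searched. Promoters were matched for 29 of the 35 genes and 10 of these held the motif, namely *Nupr1*, *Trib3*, *Chac1*, *Asns*, *Pycr1*, *Aars*, *Gars*, *Iars*, *Tars* and *Yars*. The motif was in 3.97% of all 32851 promoters of the same length, and 4.51% of all 27025 genes had a promoter with it. Promoters of *Eif4ebp1*, *Slc7a5*, *Cars*, *Lars*, *Nars* and *Wars* were not used here. The windows below are shown for 6 of the 10 genes, covering an enzyme, 2 stress regulators and 3 synthetases whose values are described later, and they are printed in the direction of the gene with the motif in capitals. The motif is on the gene's own strand in *Asns* and on the opposite strand in the other 5.
*Asns*, chr6:7693210-7693250, minus strand: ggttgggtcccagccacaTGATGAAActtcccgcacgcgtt
*Chac1*, chr2:119351031-119351074, plus strand: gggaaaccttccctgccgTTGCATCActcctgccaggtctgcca
*Nupr1*, chr7:126625555-126625598, minus strand: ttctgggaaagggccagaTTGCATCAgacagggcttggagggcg
*Aars*, chr8:111033712-111033755, plus strand: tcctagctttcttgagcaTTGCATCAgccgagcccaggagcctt
*Gars*, chr6:55037953-55037996, plus strand: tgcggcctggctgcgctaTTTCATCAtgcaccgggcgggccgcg
*Tars*, chr15:11399659-11399691, minus strand: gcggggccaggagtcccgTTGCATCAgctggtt
A match is a run of letters and not a shown binding site. *Atf4*, *Ddit3*, *Sesn2*, *Slc3a2* and *Slc38a2*, which are described below, had no match within these windows of their promoters.

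The deposited values are reads on exons that the authors scaled between samples and rounded, and they are called normalized values below. They summed to between 9477340 and 12273349 in the 180 samples. All 8 macrophage markers had a median of at least 10, with a summed value of 85635 to 250475, while T cell markers summed to at most 6, erythroid markers to at most 5 and B cell markers to at most 46. Markers of fibroblasts summed to 4 to 222, those of dendritic cells to 33 to 162 and those of neutrophils to 217 to 2141. In bulk RNA a change in the share of a cell type and a change of RNA per cell cannot be told apart. The share of mitochondrial transcripts was 0.76 to 1.95% in the DMSO samples and 0.53 to 4.47% in the CKI samples, and it is given below where it moved with the genes. Over the 59 group means its Spearman correlation was 0.81 with *Nupr1*, 0.79 with *Ddit3*, 0.75 with *Sars*, 0.65 with *Shmt2* and 0.64 with *Nars*. In the other direction it was -0.59 with *Mars*, -0.555 with *Mthfd2*, -0.521 with *Wars* and -0.49 with *Eprs*. These values describe the groups and were not tested. The correlation was between -0.24 and 0.24 for *Atf4*, *Asns*, *Trib3*, *Chac1*, *Sesn2* and *Slc38a2*.

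In the DMSO samples the level per kilobase of transcript was highest for *Slc3a2*, at a mean normalized value of 1415 per kilobase, followed by *Eif4ebp1* at 1030, *Nupr1* at 961 and *Atf4* at 922. It was lowest for *Pycr1* at 3.86, *Chac1* at 5.31 and *Ddit4* at 5.94 per kilobase. All 35 genes passed the filter, which asks for a mean of at least 10 over all samples. *Ddit4*, with a mean of 10.1, did so only through the Midostaurin samples, since its mean is 8.47 without them. Differences below are on the scale of log2(normalized value + 1) and carry the standard error (SE) of limma, fitted to all 59 groups. A gene is called higher or lower where the p-value adjusted over all 12714 tested genes is under 0.05. All comparisons with DMSO share the same 6 control samples, so a control value that is off moves every CKI alike.

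Of the 58 CKIs, 19 had at least 1 of the 35 genes called, and leaving out replicate 2 of every group left 8 such CKIs. Of the 39 CKIs without such a call, 17 had no gene called among all 12714 tested. There were 104 calls in all among 2030 pairs of gene and CKI, of which 80 (3.94%) were higher and 24 (1.18%) lower. Over all tested genes, 2.52% of such pairs were higher and 1.65% lower. Of the 104 calls, 22 belonged to Afatinib. The count per CKI in the bar plot falls from Afatinib to 5 CKIs with 1 gene each.

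**Figure D1:**
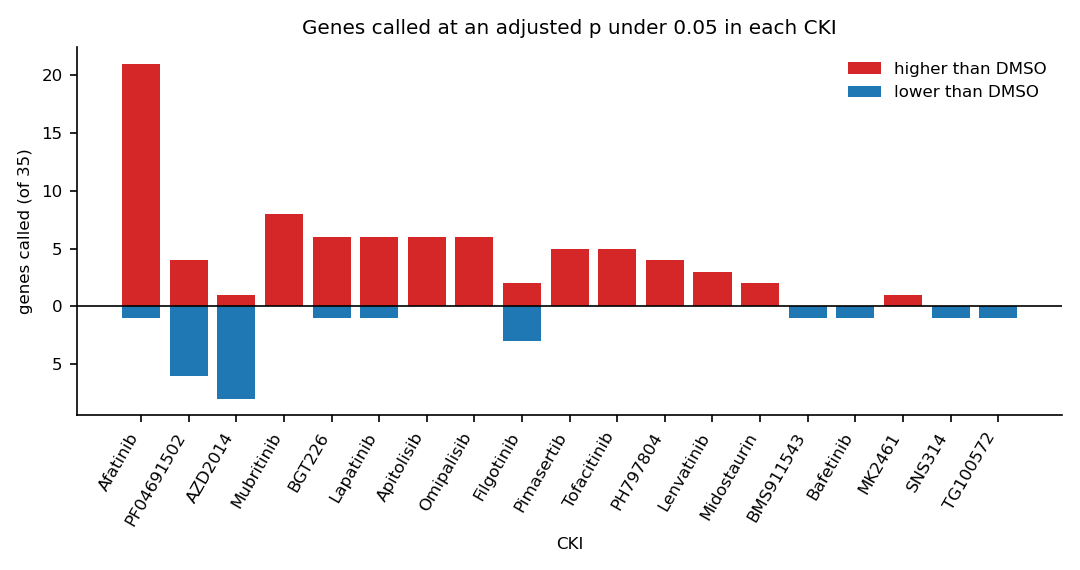
Number of the 35 genes called higher (red, above 0) or lower (blue, below 0) than DMSO at an adjusted p under 0.05, for the 19 CKIs with at least 1 call. Afatinib had 21 genes higher and 1 lower, while AZD2014 and PF04691502 had more genes lower (8 and 6) than higher (1 and 4).

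Single genes differed in the number of CKIs in which they were called. *Slc3a2*, the heavy chain shared by several transporters, was higher in 10 CKIs. *Atf4* was higher in 8 and lower in AZD2014, and *Ddit3*, *Slc38a2*, *Nars* and *Sars* were each higher in 7. *Atf5*, a paralogue of *Atf4* that is also translated under stress, was lower in 6 CKIs and higher in 0. Called or not, the difference was above 0 in 54 of the 58 CKIs for *Slc3a2*, 53 for *Sars* and 52 for *Nars*. It was above 0 in 51 for *Ddit3*, 48 for *Atf4* and *Slc38a2*, and 6 for *Atf5*. All these differences share the 6 DMSO samples, and the part of the controls in such one-sided counts was not tested. *Asns* was higher in Afatinib and Mubritinib, *Sesn2* in the same pair of CKIs, and *Chac1* in these and in PH797804. *Ddit4* was called higher in Midostaurin. Its next largest difference was in Momelotinib, at 28, 28 and 12, with 1.07 ± 0.56 that was not called, and the difference between these CKIs was not tested. Without the replicate number in the fit, *Cebpg*, *Vegfb*, *Slc7a1*, *Eprs*, *Iars*, *Lars* and *Mars* were called in none of the 58.

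**Figure D2:**
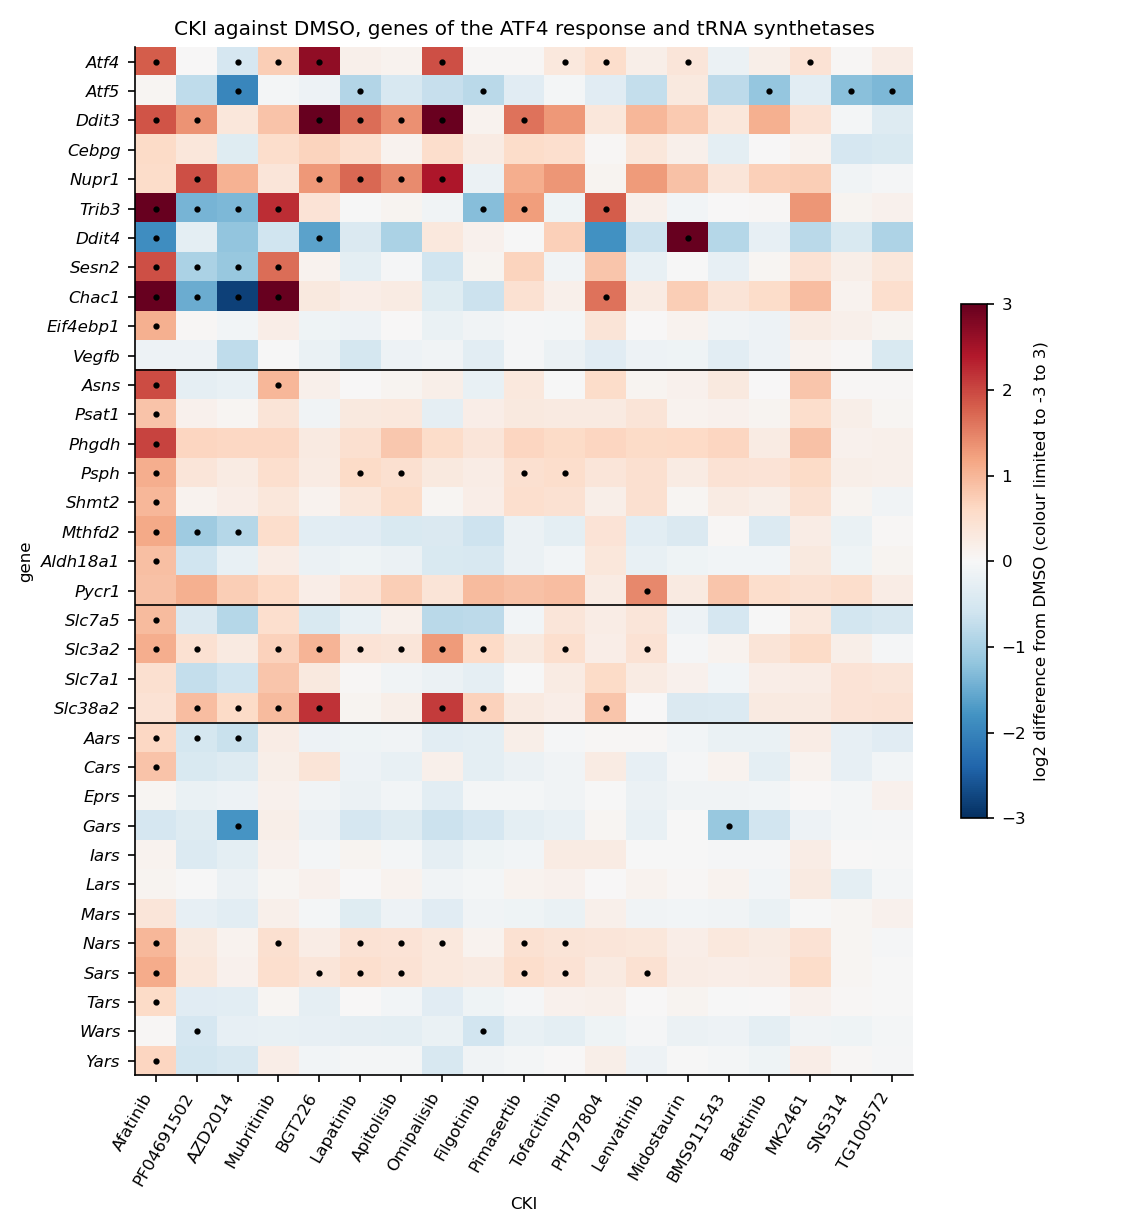
Difference from DMSO (colour, log2, limited to 3 in either direction) of the 35 genes (rows, in the order stress regulators, amino acid synthesis, transporters and tRNA synthetases, divided by lines) in the 19 CKIs with a call (columns). A dot marks a call at an adjusted p under 0.05. The Afatinib column is red in all 4 groups, BGT226 and Omipalisib are red at *Atf4*, *Ddit3*, *Slc3a2* and *Slc38a2*, and AZD2014 and PF04691502 are blue at *Trib3*, *Chac1* and *Sesn2*.

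Afatinib, a covalent inhibitor designated for EGFR and ERBB2, raised the largest number of these genes among the 58 CKIs. It had 21 of 35 genes higher and 1 lower, beside 9.06% of all tested genes higher and 12.8% lower. The median difference of the 35 genes was 0.86, against 0.03 for all tested genes. Afatinib was singled out after the values were seen, because it had the most calls. *Slc38a2*, at 1787, 1406 and 3990 in Afatinib with a difference of 0.44 ± 0.20, was among the genes not called.

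*Atf4* itself was at 4987, 5933 and 5834 in the Afatinib samples and at 1753, 1462, 1667, 1675, 1293 and 1716 in the DMSO samples. Every Afatinib sample lay above every DMSO sample, and the difference was 1.81 ± 0.09 (SE, n = 3 and 6, adjusted p = 8.29e-36). *Trib3*, a pseudokinase that restrains ATF4 and AKT, was at 601, 983 and 855 against 35 to 93 in DMSO. That is a difference of 3.81 ± 0.34 (adjusted p = 3.69e-17). *Chac1*, which degrades glutathione, was at 93, 188 and 206 against 5 to 14 in DMSO, a difference of 4.14 ± 0.47 (adjusted p = 1.66e-11). *Sesn2*, a leucine sensor that restrains mTORC1, was at 211, 328 and 351 against 42 to 99 and differed by 1.93 ± 0.31 (adjusted p = 8.22e-07). *Ddit3*, which encodes the stress factor CHOP, was at 138, 157 and 97 against 22 to 76 and differed by 1.89 ± 0.46 (adjusted p = 0.00129). In each of these genes the Afatinib and the DMSO samples did not overlap. *Eif4ebp1*, a repressor of translation and a target of mTORC1, was the sixth stress regulator called higher, at 1.06 ± 0.16.

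Of the 8 amino acid synthesis enzymes, 7 were higher in Afatinib, and *Pycr1*, at 0.89 ± 0.39, was not called. *Asns* was at 1073, 1119 and 1333 against 217 to 442 in DMSO and differed by 1.95 ± 0.23 (adjusted p = 1.19e-10). *Phgdh*, the first enzyme of serine synthesis, was at 130, 162 and 148 against 22 to 51 and differed by 2.02 ± 0.34 (adjusted p = 2.83e-06). The other 2 serine enzymes followed with smaller differences, of 1.09 for *Psph* and 0.86 for *Psat1*. *Mthfd2*, *Shmt2* and *Aldh18a1* differed by 1.14, 1.00 and 0.90. Both chains of the leucine transporter were higher, *Slc3a2* by 1.09 ± 0.14 from a mean of 4187 to 8874 and *Slc7a5* by 0.94 ± 0.34 from 27.8 to 55.3. The *Slc7a5* call was lost without a filter and against either DMSO set alone, and that of *Aldh18a1* against DMSO set 1 alone.

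The tRNA synthetases moved less far. Of the 12, *Sars* (1.11), *Nars* (0.99), *Cars* (0.86), *Yars* (0.65), *Aars* (0.63) and *Tars* (0.57) were higher in Afatinib, and 11 of 12 had a difference above 0. The *Yars* call was lost without a filter and against either DMSO set alone, and that of *Tars* against DMSO set 1 alone. *Gars* was at a mean of 662 against 942 in DMSO, a difference of -0.50 ± 0.27 that was not called. With the replicate number in the fit, *Gars* was called lower. The median difference of the 12 was 0.47. Among the 8 other cytosolic synthetases, 1 was higher (*Rars*, 0.56) with a median of 0.23. Among the 17 mitochondrial synthetases, *Hars2* was higher (0.45) and *Cars2* (-1.54), *Vars2* (-0.75), *Iars2* (-0.69) and *Lars2* (-0.50) were lower, with a median of -0.06. The 3 groups of synthetases were compared by these counts and medians alone.

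**Figure D3:**
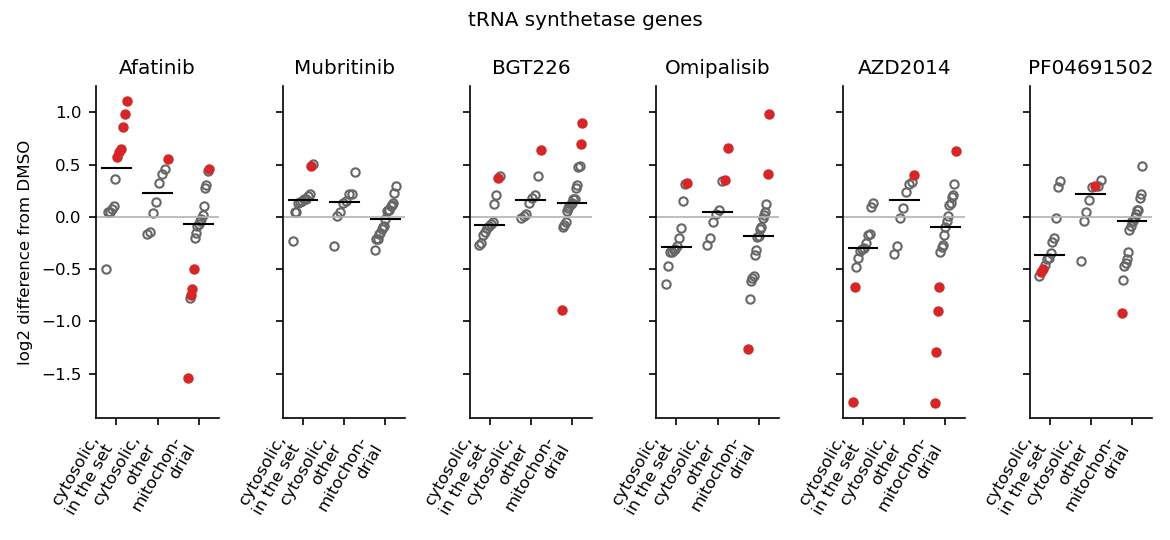
Difference from DMSO (log2) of tRNA synthetase genes in 6 CKIs. Each point is a gene, filled red where it was called, and the black line is the median of the 12 cytosolic synthetases among the 35 genes, the 8 other cytosolic ones or the 17 mitochondrial ones. In Afatinib the medians fall from 0.47 to 0.23 to -0.06, and in AZD2014 *Gars* and several mitochondrial synthetases lie lowest.

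Without the replicate number in the fit, the 1 gene called lower in Afatinib was *Ddit4*, which encodes the mTORC1 inhibitor REDD1. *Ddit4* was at 2, 1 and 3 against 5 to 14 in DMSO, with a difference of -1.87 ± 0.56 (adjusted p = 0.00941). This call was lost without Afatinib replicate 2 and against DMSO set 2 alone. Values this low carry a large counting error. Outside the 35 genes, 5 of 13 further ATF4 targets tested were higher in Afatinib, among them *Gdf15* (2.02), a stress cytokine, and the alanine and serine carrier *Slc1a4* (1.91), and the glutamine carrier *Slc1a5* was lower (-1.21). Of 18 genes of protein folding in the endoplasmic reticulum, 0 were higher by limma and 5 were lower, among them *Xbp1* (-1.04) and *Dnajc3* (-0.88). Among all tested genes, 9.06% were higher in Afatinib and 12.8% lower. In either direction, 6 of the 18 had an unadjusted p under 0.05. Of 7 genes for eIF2 kinases, phosphatase subunits and eIF2 itself, the phosphatase subunit *Ppp1r15b* was lower (-1.20).

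Mubritinib, designated for ERBB2, gave the next most calls higher without any lower. It had 8 genes higher and 0 lower, where 1.08% of all genes were higher and 0.763% lower, and 12 of the 35 had an unadjusted p under 0.05. *Chac1* was at 67, 74 and 66, *Trib3* at 273, 257 and 257, *Sesn2* at 212, 241 and 283 and *Asns* at 582, 559 and 669. All 12 of these values lay above the highest DMSO sample of their gene. The differences were 2.99 ± 0.47 for *Chac1*, 2.22 ± 0.34 for *Trib3*, 1.68 ± 0.31 for *Sesn2* and 0.99 ± 0.23 for *Asns*, with adjusted p from 1.31e-06 to 0.00582 for these 4 genes. *Atf4* (0.73), *Slc38a2* (0.95), *Slc3a2* (0.68) and *Nars* (0.49) were the other genes called. PH797804, designated for the kinase p38, raised *Trib3* (1.83), *Chac1* (1.64), *Slc38a2* (0.83) and *Atf4* (0.52). Other CKIs designated for EGFR or ERBB2 had other values, and their concentrations differ. In Neratinib, *Trib3* had a mean of 53.7, *Chac1* of 13.0 and *Asns* of 314, and in Lapatinib these means were 55.7, 9.67 and 309.

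BGT226 and Omipalisib, both designated for PI3K and mTOR, raised *Atf4* and *Ddit3* without raising *Asns*, *Trib3*, *Chac1* or *Sesn2* past the threshold. In BGT226, 6 genes were higher and 1 lower, where 24.1% of all genes were higher and 6.32% lower. In Omipalisib, 6 were higher and 0 lower, where 17.5% were higher and 8.16% lower, and 13 of the 35 had an unadjusted p under 0.05. In both CKIs, 6 of 35 is no larger than the share of all genes that were higher, so the counts are not a result about these genes. Without DMSO set 2 replicate 1, Omipalisib had 10 calls, 6 higher and 4 lower. With the replicate number in the fit, BGT226 had 8 higher and 3 lower, and Omipalisib had 6 higher and 12 lower.

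*Atf4* reached 9951, 9832 and 10468 in BGT226, the highest mean of the 59 groups, and 6009, 6011 and 6143 in Omipalisib. The differences from DMSO were 2.67 ± 0.09 (adjusted p = 4.08e-53) and 1.93 ± 0.09 (adjusted p = 8.16e-39). *Ddit3* was at 1319, 731 and 566 in BGT226, a difference of 4.56 ± 0.46 (adjusted p = 2.28e-15). In Omipalisib it was at 289, 383 and 176, a difference of 2.96 ± 0.46 (adjusted p = 1.21e-07). *Slc38a2* was at 6323, 7826 and 7381 in BGT226 and at 7059, 6191 and 7305 in Omipalisib, against 1095 to 2028 in DMSO. It differed by 2.17 ± 0.20 and 2.11 ± 0.20. *Slc3a2* differed by 1.01 ± 0.14 and 1.28 ± 0.14. For these 4 genes no CKI sample overlapped with DMSO, and all 4 were also called in both CKIs with the mitochondrial share and the replicate number in the fit.

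*Nupr1*, a small chromatin protein induced by stress, was at 3516, 3170 and 2109 in Omipalisib, all above the 343 to 1283 of DMSO, with a difference of 2.43 ± 0.51 (adjusted p = 9.98e-05). In BGT226 it was at 2438, 985 and 959 and overlapped with DMSO, with a difference of 1.31 ± 0.51 (adjusted p = 0.0406). The BGT226 call of *Nupr1* was lost without a filter, after scaling by the median of ratios (adjusted p = 0.0825) and against either DMSO set alone. *Ddit4* was at 6, 5 and 0 in BGT226, a difference of -1.60 ± 0.56 (adjusted p = 0.0200) whose call was lost without replicate 3, the sample listed at 0, with a pseudocount of 10, in a fit of the compared groups alone and against DMSO set 2 alone. *Sars* in BGT226 (0.37) and *Nars* in Omipalisib (0.33) were the remaining calls, and both were lost when all samples were scaled again by the median of ratios. That scaling lowered the median difference of all genes from 0.21 to 0.02 in BGT226 and from 0.12 to 0.02 in Omipalisib. It left 4 genes higher and 4 lower in BGT226, and 5 higher and 6 lower in Omipalisib, with *Aars* and *Tars* among the lower in both.

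Several well-known targets were not called in either CKI. *Asns* was at 255, 313 and 464 in BGT226 and at 300, 310 and 428 in Omipalisib, with differences of 0.14 ± 0.23 and 0.18 ± 0.23. *Trib3* was at 59, 67 and 106 and at 42, 44 and 76, and *Chac1* at 5, 12 and 15 and at 3, 12 and 5. All of these overlapped with the DMSO samples. Of the 8 synthesis enzymes, 0 were called in BGT226 or in Omipalisib without the replicate number in the fit, with medians of 0.13 and 0.12. In that fit 0 of the 8 in either CKI had an unadjusted p under 0.05. With the replicate number in the fit, *Psat1*, *Mthfd2* and *Aldh18a1* were called lower in Omipalisib, and also with the mitochondrial share added. After scaling by the median of ratios, *Psat1* was called lower in Omipalisib (-0.38, adjusted p = 0.0294). Other stress genes moved far. Of 13 further ATF4 targets, 6 were higher in BGT226 and 7 in Omipalisib, where 24.1% and 17.5% of all genes were higher. Examples are *Gdf15* (4.57 and 4.38), *Gadd45a* (2.41 in both), *Atf3* (2.03 and 1.26) and *Ndrg1* (1.96 and 1.90), and the eIF2 phosphatase subunit *Ppp1r15a* rose by 2.06 and 2.32. The mRNAs of the eIF2 kinases *Eif2ak3* and *Eif2ak4* were higher in BGT226 (0.99 each).

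**Figure D4:**
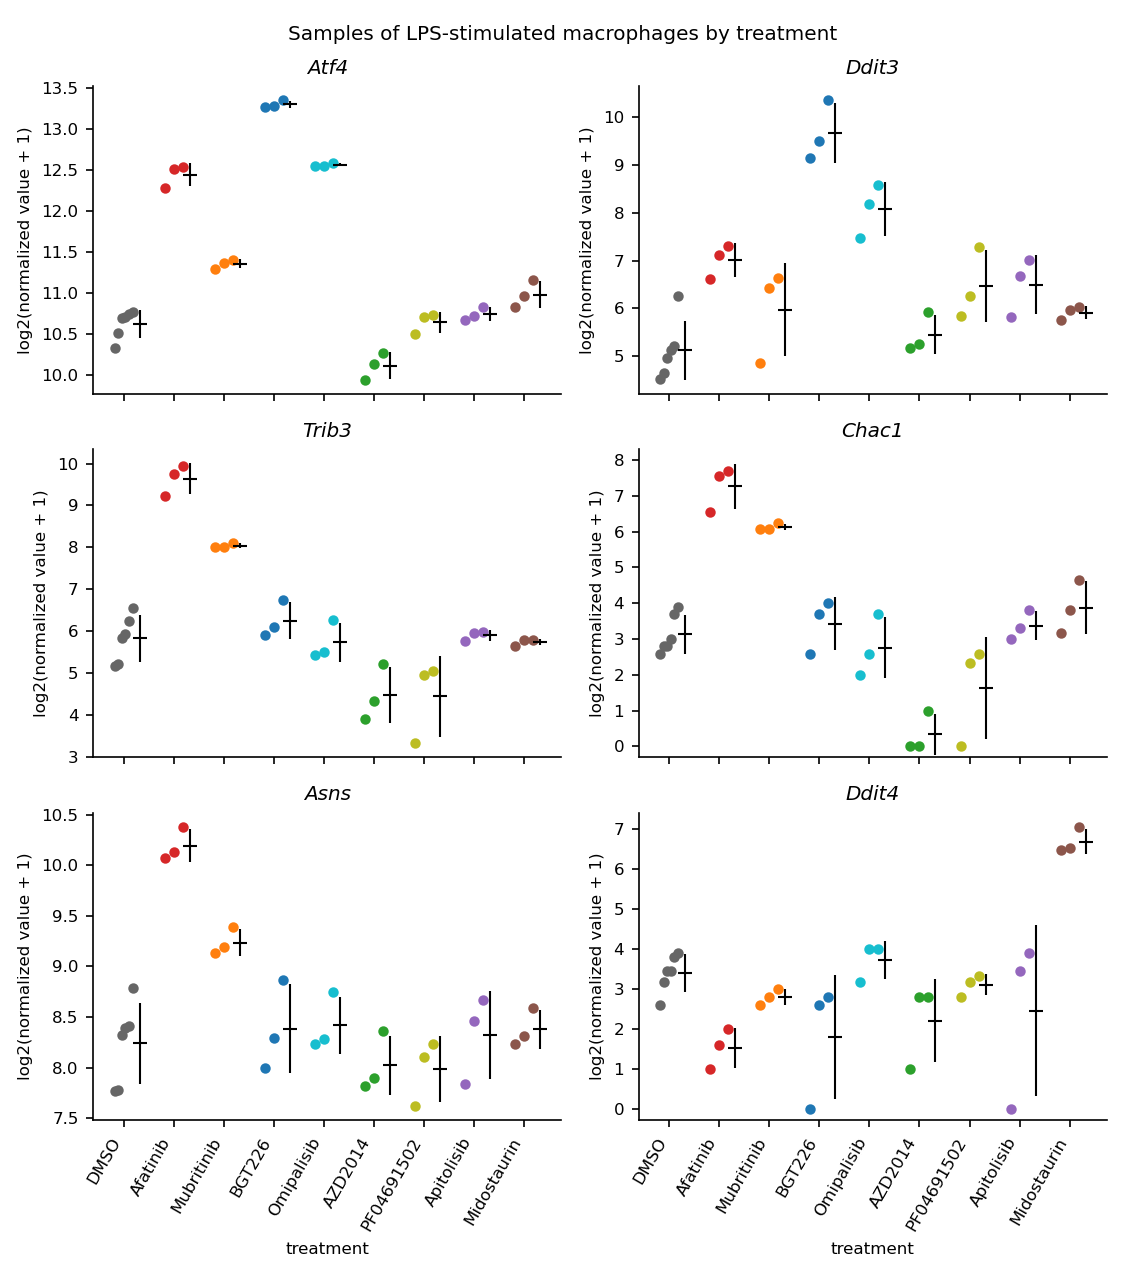
Values of 6 genes in every sample of DMSO and 8 CKIs on the scale log2(normalized value + 1). Points are samples, and the black line with its bar beside them gives the mean and SD (n = 6 for DMSO and 3 for each CKI). *Atf4* is highest in BGT226, *Trib3*, *Chac1* and *Asns* are highest in Afatinib followed by Mubritinib, *Chac1* is lowest in AZD2014, and *Ddit4* is highest in Midostaurin.

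Afatinib was set directly against BGT226 and Omipalisib, without DMSO, in a contrast added after the values were seen. The CKIs on each side were chosen with the values of these same genes known. The p-values are therefore not support for a difference between their patterns. Against the mean of BGT226 and Omipalisib, Afatinib had 18 genes higher and 4 lower, where 8.14% of all genes were higher and 24.9% lower. The 4 lower genes were *Atf4* (-0.49), *Nupr1* (-1.31), *Slc38a2* (-1.70) and *Ddit3* (-1.86). The genes higher included *Chac1* by 4.18 ± 0.47 (adjusted p = 6.37e-13), *Trib3* by 3.65 ± 0.34 (adjusted p = 2.91e-17), *Sesn2* by 2.18 ± 0.31 and *Asns* by 1.79 ± 0.23, 7 of the 8 synthesis enzymes, *Slc7a5* (1.58) and 6 synthetases. *Slc3a2* differed by -0.05 ± 0.14 between them. In this contrast the CKIs with more *Atf4* mRNA had less *Asns*, *Trib3* and *Chac1* mRNA. That order holds for these chosen CKIs and is not a relation over all CKIs. Against DMSO, *Atf4*, *Asns*, *Trib3* and *Chac1* were called higher together in Mubritinib, and also in Afatinib. In AZD2014, *Atf4*, *Trib3* and *Chac1* were called lower together, and *Asns* was not called.

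AZD2014, designated for mTOR, and PF04691502, designated for PI3K and mTOR, had lower levels of several ATF4 targets than DMSO. In AZD2014, 1 gene was higher and 8 were lower, where 6.06% of all genes were higher and 13.5% lower. With the replicate number in the fit, 2 were higher and 13 lower in AZD2014. The median difference of the 35 genes was -0.30, against -0.02 for all genes. *Chac1* was at 0, 1 and 0 against 5 to 14 in DMSO, a difference of -2.80 ± 0.47 (adjusted p = 9.01e-07). Values this close to 0 carry a large counting error, so the size is uncertain. *Atf5* was at 11, 7 and 4 against 19 to 40, a difference of -1.97 ± 0.29 (adjusted p = 4.04e-08). *Gars*, the glycine synthetase, was at 234, 207 and 372 against 638 to 1610, a difference of -1.78 ± 0.27 (adjusted p = 4.18e-08). In these genes no AZD2014 sample overlapped with DMSO.

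*Atf4* was lower in AZD2014 as well, at 986, 1126 and 1235, all below the lowest DMSO sample, with a difference of -0.51 ± 0.09 (adjusted p = 5.48e-06). *Trib3* (-1.34), *Sesn2* (-1.13), *Mthfd2* (-0.86) and *Aars* (-0.67) were the other genes lower. Of these, *Aars* alone did not overlap with DMSO. *Slc38a2* was the gene that was higher, at 2078, 2465 and 2622, with a difference of 0.59 ± 0.20 (adjusted p = 0.0266). That call was lost without AZD2014 replicate 2 or 3, without DMSO set 1 replicate 3, without a filter, in a fit of the compared groups alone and against DMSO set 2 alone. Among further ATF4 targets, *Slc1a5* (-2.26), *Gpt2* (-2.18), which makes alanine, and the tRNA exporter *Xpot* (-0.61) were lower in AZD2014, and *Gadd45a* (0.84) and *Ndrg1* (0.90) were higher. The mitochondrial synthetases *Cars2* (-1.78), *Iars2* (-1.30), *Mars2* (-0.90) and *Lars2* (-0.67) were lower. So were 5 of 18 genes of protein folding, with *Xbp1* at -1.85, where 13.5% of all genes were lower. In either direction, 5 of the 18 had an unadjusted p under 0.05 in AZD2014. That number was 7 in BGT226, 7 in Omipalisib, 5 in Apitolisib, 4 in PF04691502 and 1 in Midostaurin.

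In PF04691502, 4 genes were higher and 6 lower, where 8.86% of all genes were higher and 4.22% lower. With the replicate number in the fit, 5 were higher and 14 lower in PF04691502. The median of the 35 genes was -0.24, against 0.10 for all genes. *Trib3* was at 9, 32 and 30, all below the 35 to 93 of DMSO, a difference of -1.38 ± 0.34 (adjusted p = 0.00251). *Chac1* was at 0, 5 and 4 (-1.50), *Mthfd2* at 254, 366 and 416 (-1.06 ± 0.28), and both overlapped with DMSO. The *Chac1* call was lost with a pseudocount of 10 and against either DMSO set alone. *Sesn2* (-0.94), *Aars* (-0.53) and *Wars* (-0.50) were also lower. *Nupr1* was at 4202, 1214 and 1683 (1.94 ± 0.51) and *Ddit3* at 156, 76 and 56 (1.34 ± 0.46), and *Slc38a2* (0.93) and *Slc3a2* (0.45) were higher too. *Atf4* had a mean of 1605 and a difference of 0.01 ± 0.09. Replicate 1 was the most extreme sample in *Nupr1*, *Ddit3*, *Trib3*, *Chac1* and *Mthfd2*, and without it 1 gene was called. Without DMSO set 2 replicate 2, 6 genes were called. The mitochondrial share was 2.69% on average here against 1.15% in DMSO. With this share and the replicate number in the fit, 3 genes were higher and 12 lower, without *Ddit3* among the higher. After scaling by the median of ratios, 3 were higher and 11 lower.

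The PI3K and mTOR inhibitors differed among themselves in these values. A contrast took the mean of BGT226 and Omipalisib minus the mean of AZD2014 and PF04691502, also added after the values were seen. The sides were chosen with the values of these same genes known, and Apitolisib was left out. The p-values are therefore not support for such a split. The contrast had 13 genes higher and 0 lower, where 24.5% of all genes were higher and 5.18% lower. The count itself is thus not far from that of all genes. The sizes were 2.92 ± 0.38 for *Ddit3* (adjusted p = 1.63e-10), 2.55 ± 0.08 for *Atf4* (adjusted p = 9.44e-61), 2.11 ± 0.38 for *Chac1* (adjusted p = 3.96e-06), 1.53 ± 0.28 for *Trib3* and 1.38 ± 0.16 for *Slc38a2*. *Atf5* (0.93), *Slc3a2* (0.79), *Sesn2* (0.78), *Slc7a1* (0.71), *Cars* (0.70), *Gars* (0.67), *Mthfd2* (0.58) and *Aars* (0.37) completed the 13. The *Chac1* values were at most 5 in AZD2014 and PF04691502, and such values carry a large counting error. *Nupr1* differed by 0.38 ± 0.42 and *Asns* by 0.40 ± 0.19, and neither was called. With the replicate number in the fit, *Asns* was called higher and *Psat1* lower. The 3 enzymes of serine synthesis differed by -0.29 to -0.03.

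**Figure D5:**
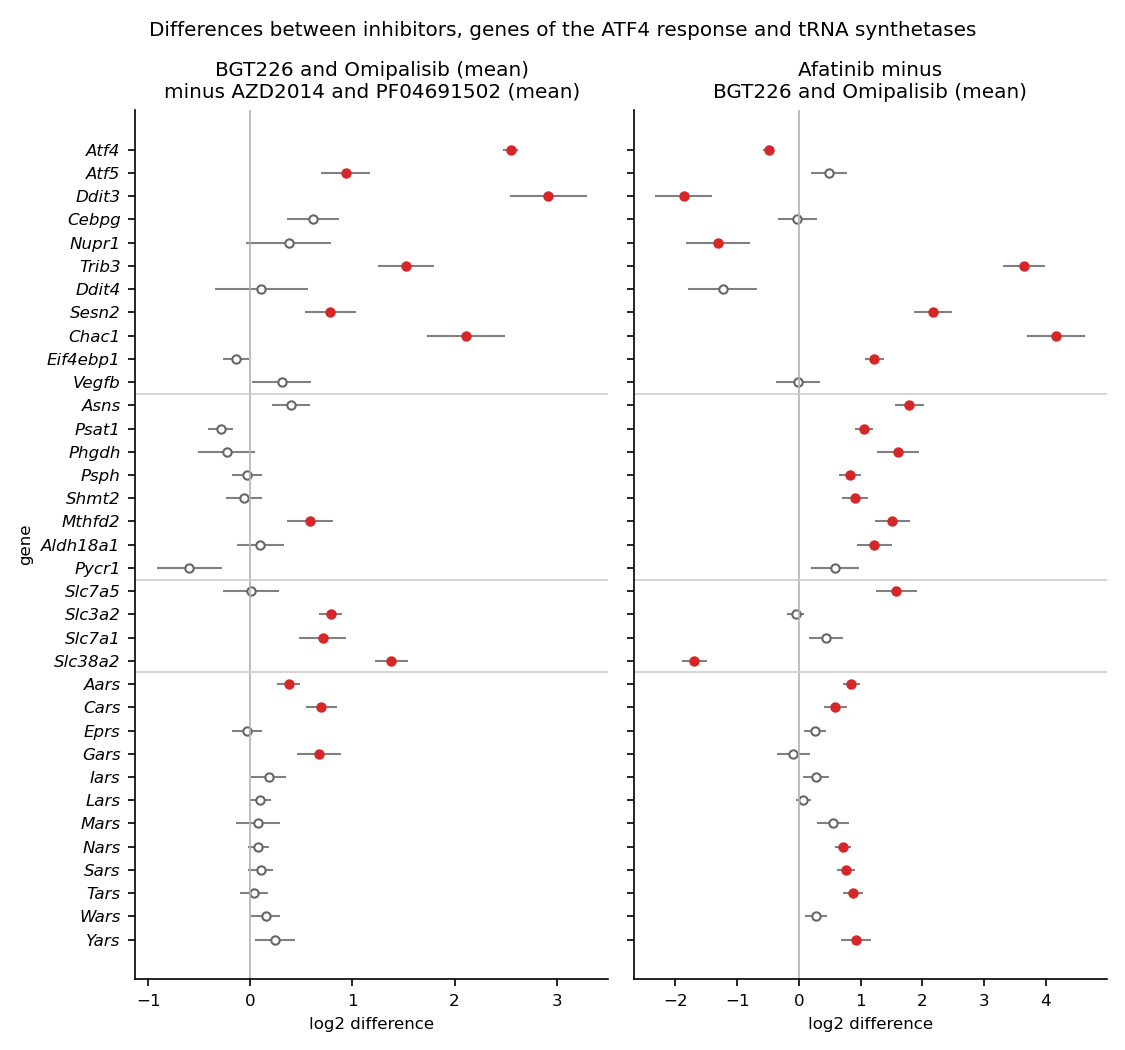
Differences between inhibitors (log2, points, with bars of 1 SE) for the 35 genes, filled red where called. On the left *Atf4*, *Ddit3*, *Chac1*, *Trib3* and *Slc38a2* lie farthest to the right, so they were higher in BGT226 and Omipalisib than in AZD2014 and PF04691502, and on the right the synthesis enzymes, *Trib3*, *Chac1* and *Sesn2* were higher in Afatinib while *Ddit3*, *Slc38a2*, *Nupr1* and *Atf4* were higher in BGT226 and Omipalisib.

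Apitolisib, a further PI3K and mTOR inhibitor, had 6 genes higher and 0 lower, where 12.7% of all genes were higher and 3.2% lower. They were *Nupr1* (1.41 ± 0.51), *Ddit3* (1.38 ± 0.46), *Psph* (0.49), *Sars* (0.45), *Nars* (0.41) and *Slc3a2* (0.37), with adjusted p from 0.0238 to 0.0499. *Nupr1* was at 1700, 964 and 1741, *Ddit3* at 128, 55 and 101 and *Psph* at 123, 147 and 173, and all 3 genes overlapped with DMSO. *Atf4* had a mean of 1719 against 1594 in DMSO and *Trib3* of 58.7 against 59.2, and neither was called. The replicate numbers pair the samples here, and with the block 9 genes were higher and 2 lower. With the mitochondrial share added to the block 0 were called. That share was 2.93% on average against 1.15% in DMSO. By limma on other samples, 0 were called without replicate 3, without DMSO set 2 replicate 2 or against either DMSO set alone, 1 without replicate 2, 2 without DMSO set 1 replicate 2 and 3 without DMSO set 1 replicate 3. In the full fit 9 of the 35 had an unadjusted p under 0.05.

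*Psph*, *Nars* and *Sars* were also called higher in Lapatinib, Pimasertib and Tofacitinib, *Ddit3* in Lapatinib and Pimasertib, and *Nupr1* in Lapatinib. The 3 CKIs had mitochondrial shares of 2.76%, 3.66% and 2.64%. Lapatinib had 6 genes higher and 1 lower (18.1% and 5.26% of all genes), with *Nupr1* at 1.72 and *Ddit3* at 1.67. Pimasertib, designated for MEK, had 5 higher and 0 lower (16% and 5.68%), and it also raised *Trib3*, at 129, 136 and 135 (1.25). Tofacitinib, designated for JAK kinases, had 5 higher and 0 lower (9.02% and 0.857%), with *Slc3a2* at 0.51 and *Atf4* at 0.33. The part of the mitochondrial share in these 3 CKIs was not tested. Filgotinib, another JAK inhibitor, had 2 higher and 3 lower (6.1% and 14.6%). It raised *Slc38a2* (0.69) and *Slc3a2* (0.60) and lowered *Trib3* (-1.27), *Atf5* (-0.81) and *Wars* (-0.58), the tryptophan synthetase that interferon induces.

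Midostaurin, which inhibits FLT3, protein kinase C and other kinases, moved 2 of the 35 genes. Both were higher and 0 were lower, where 2.63% of all genes were higher and 1.93% lower, and 3 of the 35 had an unadjusted p under 0.05. *Ddit4* was at 89, 133 and 91 against 13, 14, 10, 10, 5 and 8 in DMSO. All Midostaurin samples lay above all DMSO samples, and the difference was 3.30 ± 0.56 (adjusted p = 6.89e-06). *Ddit4* passed the filter only because of these samples, and without a filter its adjusted p was 1.26e-05. The mean rose from 10.0 ± 3.29 (SD, n = 6) to 104 ± 24.8 (SD, n = 3). *Atf4* was at 1823, 1995 and 2285, also above all of DMSO, with a difference of 0.35 ± 0.09 (adjusted p = 0.00920). This call was lost without Midostaurin replicate 3, without DMSO set 2 replicate 2, against DMSO set 1 alone, in a fit of the compared groups alone and after scaling by the median of ratios.

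The other ATF4 targets among the 35 genes were not called in Midostaurin. *Trib3* was at 49, 54 and 54, *Asns* at 299, 317 and 385 and *Sesn2* at 79, 79 and 67, all within the range of DMSO. *Ddit3* was at 64, 53 and 61 and *Chac1* at 8, 13 and 24, with differences of 0.79 ± 0.46 and 0.74 ± 0.47 that were not called. The samples with the same replicate number pair here, and with the block *Mthfd2*, at 444, 525 and 604, was called lower (-0.44). Among the 12 synthetases 0 were called by limma, 0 of them had an unadjusted p under 0.05, and the median was -0.02. Among genes outside the 35, the cystine carrier *Slc7a11* (0.80) and *Gadd45a* (1.12) were higher, and *Atf3* (-1.81) and *Ppp1r15a* (-1.36) were lower. *Atf3* and *Ppp1r15a* are also early LPS-induced genes, and both were higher in BGT226 and Omipalisib.

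Midostaurin was set directly against the mean of the 5 inhibitors BGT226, Omipalisib, AZD2014, Apitolisib and PF04691502. It had 4 genes higher and 4 lower, where 8.07% of all genes were higher and 8.1% lower. *Ddit4*, which was tested only because the Midostaurin samples carried it past the filter, was higher by 4.04 ± 0.50 (adjusted p = 8.01e-11). It was followed by *Chac1* (1.57 ± 0.42), *Atf5* (1.11 ± 0.26) and *Gars* (0.65 ± 0.24). *Slc38a2* differed by -1.62 ± 0.18 (adjusted p = 9.68e-13), with *Ddit3* at -1.32, *Slc3a2* at -0.72 and *Atf4* at -0.49. Without Midostaurin replicate 3, 5 genes were called. Since the 5 inhibitors differ among themselves, their mean stands for none of them alone.

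CKIs designated for PI3K alone or for AKT had few calls over all genes. The share of all tested genes called in either direction was 0.228% in AZD8186, 0.0236% in TG100115, 1.82% in MK2206 and 0% in GSK2110183, so a count of 0 among the 35 is not a result about them. Without the replicate number in the fit, 0 of the 35 genes were called in AZD8186 (PI3K), TG100115 (PI3K), MK2206 (AKT) and GSK2110183 (AKT). In that fit 2, 5, 6 and 2 had an unadjusted p under 0.05. The median differences of the 35 genes were -0.04, 0.12, 0.00 and 0.08, beside 0.00, 0.16, 0.11 and 0.08 for all genes.

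Across the 59 groups the 35 genes did not move as 1 unit. The median Spearman correlation between pairs of them over the group means was 0.21, and it was 0.32 within the synthesis enzymes and 0.30 within the 12 synthetases. The highest values were 0.88 for *Shmt2* and *Sars*, 0.86 for *Nars* and *Sars*, 0.83 for *Psat1* and *Shmt2* and 0.82 for *Ddit3* and *Nupr1*. The genes of these pairs also correlated with the mitochondrial share, at 0.553 to 0.805, and its part was not tested. The lowest values were -0.705 for *Nupr1* and *Mars*, -0.688 for *Nupr1* and *Eprs* and -0.647 for *Nupr1* and *Mthfd2*. Each group mean comes from other samples, but depth and RNA quality can move several genes together. Outside the 35, the gene whose group means were most like the average of *Asns*, *Psat1*, *Chac1*, *Trib3*, *Ddit3* and *Sesn2* was *Rhbdd1*, a rhomboid protease gene, with a Spearman correlation of 0.76 over 59 groups. *Cenpo* (0.64), *Lrrc57* (0.64), *Ormdl1* (0.63), *Wdr24* (0.62), *Oard1* (0.61), *Sirt4* (0.61), *Plekhm2* (0.61) and *Tmx2* (0.60) were also among the 10 most alike. *Rhbdd1* belonged to the list of 13 further ATF4 targets, and it was higher in Afatinib (0.65), BGT226 (0.61) and Omipalisib (0.60).

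*Ddit3* and *Mars1* lie on opposite strands of chromosome 10, at 127290793 to 127296288 and 127296221 to 127311786 in mm10, and their annotated ends overlap by 68 bases. SMART-seq2 libraries do not mark the strand, so reads in the overlap cannot be assigned to either gene, and both values are uncertain to that extent. *Mars* differed from DMSO by at most 0.37 in any CKI, so the changes of *Ddit3* were not seen in it.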

How the data were processed

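Poly-A RNA-seq was made with the SMART-seq2 protocol from 180 samples of LPS-treated BMDM. According to the methods of the study and the submitters' processing notes, the authors aligned reads to mm10 with TopHat2 2.1.1, counted them on exons of RefSeq genes, scaled the samples on genes that varied little, and deposited the result rounded to whole numbers. These deposited values are neither raw counts nor a standard unit and were treated as a score, called normalized value. Whole reads could not be recovered, so limma 3.58.1 (R 4.3.3) was used with a variance trend on log2(value + 1) for the 12714 genes with a mean of at least 10. All 59 groups were fitted together, and p-values were adjusted by the method of Benjamini and Hochberg over these genes within each comparison. The methods of the study speak of independent biological replicates. The script was tested on simulated data.

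The genes, the lists of other genes and the contrasts were chosen with earlier results of these data known. All 35 genes may be named. For Midostaurin, BGT226, Omipalisib, AZD2014, Apitolisib and PF04691502 the rule gave sample values for at most 3 called genes that rose most and at most 3 that fell most, and names for genes of the other lists that were called there. It named at most 5 further CKIs with the most calls, CKIs designated for PI3K, mTOR or AKT, and the 10 genes most like 6 of the 35, of which 1 is not reported here. Afatinib, its contrast, the contrast between PI3K and mTOR inhibitors, Neratinib, PH797804, Momelotinib and all sample values beyond this rule were chosen after values were seen. The labels do not tie a CKI to either DMSO set, so both were used. Same-numbered samples deviated together, with correlations of 0.35 to 0.55 between the DMSO sets, 0.13 to 0.46 for Midostaurin and 0.37 to 0.46 for Apitolisib, so these were taken as pairs. The alternatives were other pseudocounts, filters, scalings and DMSO sets, no variance trend, the compared groups alone, replicate blocks, and leaving out single samples. Normalized values near 10 carry a large counting error, so small changes of such genes were not detectable. Figures were drawn with matplotlib 3.10.9.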

Additional observations from a re-analysis of the deposited data

Results flagged for a closer look

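Among the 6 DMSO samples, *Sesn2* was at 42 in DMSO set 2 replicate 1 and at 78 to 99 in the other 5, a gap of 0.721 of the whole range on the log2 scale, which is above the 95% limit of Dixon's ratio for 6 samples. It was the only one of the 35 genes flagged in this way, and chance alone flags about 1 in 20 groups. The *Sesn2* calls, higher in Afatinib and Mubritinib and lower in AZD2014 and PF04691502, use this sample as part of the reference.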

How the results depend on the processing

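Counts below are numbers of the 35 genes called. Afatinib, Afatinib against BGT226 and Omipalisib, and BGT226 and Omipalisib against AZD2014 and PF04691502 stayed within 1.5 times of 22, 22 and 13 under every alternative tried, all of them chosen after seeing the data, with 19 to 22, 20 to 23 and 12 to 14 when single samples were left out. Over all single-gene results tried, 436 alternatives kept the call, 76 lost it and 0 changed direction. With the replicate block the counts were 11 instead of 7 for BGT226, 18 instead of 6 for Omipalisib (*Psat1*, *Mthfd2* and *Aldh18a1* among the 12 lower), 15 instead of 9 for AZD2014, 11 instead of 6 for Apitolisib and 19 instead of 10 for PF04691502, and 29 instead of 19 CKIs had a call. Among the 7 CKIs checked, same-numbered samples were taken as pairs only where all 3 correlations were above 0.1, in Midostaurin and Apitolisib. In BGT226 they were 0.683, 0.06 and 0.24, with a mean of -0.164 between different numbers. In Midostaurin they were 0.23, 0.46 and 0.134, with a mean of -0.138, so the cut-off does not separate these CKIs clearly. In the 5 CKIs not paired, replicate 1 correlated with its own number at 0.286 to 0.683, and a shared replicate effect there was not tested. In each of these 5, 1 of 3 samples correlated best with its own number, against 3 of 3 in Apitolisib and 2 of 3 in Midostaurin. Among the CKIs designated for PI3K alone or AKT, the block called 5 genes in TG100115 and 3 in MK2206. With the mitochondrial share added to the replicate block the counts were 4 instead of 2 for Midostaurin, 14 for Omipalisib, 19 for AZD2014 and 0 for Apitolisib. Scaling by the median of ratios gave 1 for Midostaurin, 11 for Omipalisib and 1 for Apitolisib. A fit of the compared groups alone gave 1 for Midostaurin, 4 for BGT226, 0 for Apitolisib and 1 for PF04691502. DMSO set 1 alone gave 1 for Midostaurin, 0 for Apitolisib and 5 for PF04691502, and DMSO set 2 alone gave 4 for BGT226, 0 for Apitolisib and 12 CKIs with a call. Without a filter Apitolisib had 1, and with a filter at a mean of 50, under which fewer genes are tested, Midostaurin had 1 and Midostaurin against the 5 inhibitors 5 instead of 8. Leaving out single samples gave 1 to 2 for Midostaurin, 5 to 7 for BGT226, 5 to 10 for Omipalisib, 7 to 10 for AZD2014, 0 to 5 for Apitolisib, 1 to 14 for PF04691502 and 5 to 8 for Midostaurin against the 5 inhibitors, and leaving out 1 replicate number or 1 DMSO sample gave 8 to 22 CKIs with a call. PF04691502 had 6 without DMSO set 2 replicate 2, and Omipalisib had 10 without DMSO set 2 replicate 1. The cause of these shifts was not tested. Genes at the filter, such as *Ddit4* and *Chac1*, have no value at the filter of 50.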
